A study of Mus musculus with 16 samples.

Results

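Transcripts of 9 genes of the VEGF family and of related regulators of angiogenesis were described across 16 RNA-sequencing samples of mouse macrophages. The genes were given by name and are the ligands Vegfa, Vegfb and Vegfc, the receptor Flt1, the co-receptors Nrp1 and Nrp2, the inhibitor Thbs1, and the secreted factors Angptl2 and Vash2. Angptl2 and Vash2 were chosen by their log2 fold change on adding the inhibitor IKK-16, so that rise is given below as a description without a test. They are 9 of the 55487 genes in the count table, and all 9 were among the 12372 genes that passed the filter on low counts, which asks for more than 1 CPM (counts scaled to a common library size) in at least 2 samples.

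The cells were bone marrow-derived macrophages (BMDMs) grown from WT Balb/c mice 8 weeks of age, and all groups share that strain and genotype. Tumor factors were supplied as conditioned media (CM) of 4T1 cells, a mouse mammary tumor line, and the JAK1 and JAK2 inhibitor ruxolitinib (Rux) and the IKK inhibitor IKK-16 were added to them. The groups were DMEM without tumor factors (2 samples), DMEM + Rux (3), CM (3), CM + Rux labelled 4 h (3), CM + Rux labelled 2 h (2), and CM + Rux + IKK-16 (3). Ruxolitinib was used at 0.5 μM and IKK-16 at 0.8 μM in CM, the dose in DMEM + Rux is not given in the sources used here, and neither is what the 2 h of the label counts. The paper describes RNA isolated after 4 h and ruxolitinib already present during the serum starvation before CM, and there was no group with IKK-16 alone. Nothing in the labels says whether replicates came from separate mice, so p-values measure the spread between these samples, which may be technical.

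VEGF-A, VEGF-B, VEGF-C and placental growth factor are secreted dimers that bind the receptor kinases VEGFR1 (Flt1), VEGFR2 (Kdr) and VEGFR3 (Flt4). The neuropilins Nrp1 and Nrp2 present VEGF to those receptors and also bind semaphorins. VEGF-A acting through VEGFR2 drives the growth of blood vessels, VEGF-C that of lymphatic vessels, and VEGFR1 binds VEGF-A tightly and also exists in a soluble form that traps it. Thrombospondin-1 (Thbs1) counters vessel growth through the receptors CD36 and CD47. Macrophages in tumors are a known source of VEGF-A, whose gene is a target of hypoxia-inducible factors.

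The promoters of 4 members are shown because the results turn on these genes: Vegfa and Flt1, which rose with CM, and Angptl2 and Vash2, which fell with CM. Each is the 250 bases before the transcript start given by RefSeq for GRCm38.p6, printed 5′ to 3′ on the strand of the gene. Bases just after that start were found in an annotated transcript for Vegfa, Flt1 and Vash2. For Angptl2 they were not found, and its RefSeq start lay 108 bases from the gene start in the count table. Its window is thus less sure. They lie at chr17:46032378-46032627 (minus strand, Vegfa), chr5:147726012-147726261 (minus strand, Flt1), chr2:33215711-33215960 (plus strand, Angptl2) and chr1:190979297-190979546 (minus strand, Vash2). Capitals mark matches to a GC box or an NF-κB site on either strand.
Vegfa: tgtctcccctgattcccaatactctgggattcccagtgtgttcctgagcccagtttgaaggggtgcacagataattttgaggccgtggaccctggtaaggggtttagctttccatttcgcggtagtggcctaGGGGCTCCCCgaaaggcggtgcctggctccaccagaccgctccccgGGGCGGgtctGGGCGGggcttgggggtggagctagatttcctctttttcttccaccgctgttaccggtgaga
Flt1: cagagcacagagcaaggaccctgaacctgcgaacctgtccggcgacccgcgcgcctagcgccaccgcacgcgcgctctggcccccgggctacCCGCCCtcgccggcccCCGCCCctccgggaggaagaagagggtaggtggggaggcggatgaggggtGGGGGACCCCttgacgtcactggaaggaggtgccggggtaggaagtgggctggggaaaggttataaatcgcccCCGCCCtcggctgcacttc
Angptl2: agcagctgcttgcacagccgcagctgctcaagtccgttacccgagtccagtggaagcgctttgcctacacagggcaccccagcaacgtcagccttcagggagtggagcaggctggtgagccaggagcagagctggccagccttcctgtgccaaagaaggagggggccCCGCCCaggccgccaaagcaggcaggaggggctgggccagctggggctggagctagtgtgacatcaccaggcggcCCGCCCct
Vash2: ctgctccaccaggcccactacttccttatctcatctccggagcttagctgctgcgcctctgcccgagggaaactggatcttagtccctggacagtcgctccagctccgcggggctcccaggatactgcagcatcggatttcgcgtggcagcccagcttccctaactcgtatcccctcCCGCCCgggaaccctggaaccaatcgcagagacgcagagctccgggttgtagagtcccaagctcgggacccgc

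RefSeq gave a promoter for 8 of the 9 members, without one for Thbs1. The NF-κB site, searched by its general form, matched Vegfa from 118 to 109 bases before the start and Flt1 from 92 to 83 bases before it, and 7.25% of the 32851 promoters of the same length hold a match. The GC box (GGGCGG) was found in all 8 members and in 32.7% of all promoters. The GC content of the 8 windows was 59.2% to 76.4%, beside a median of 52.4% over all promoters. No member's window held the hypoxia response core (ACGTG, in 16.6% of all promoters), the AP-1 site (TGANTCA, 6.75%) or the STAT site (TTCNNNGAA, 7.02%). No match overlapped a match of another motif, and these are matches of letters in 1 short window, not sites shown to be bound.

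The total count ran from 18449388 to 46215853 fragments a sample. The summed level of 8 macrophage markers was 40148 to 57183 CPM in every group. Of 11 endothelial markers 5 passed the filter (Vwf, Eng, Tie1, Kdr and Pecam1), their sum was 182 to 355 CPM over all groups, Cldn5 had no counts in any sample, and Cdh5 averaged at most 0.51 CPM in a group. The sum of 8 epithelial markers was 0 to 0.118 CPM in DMEM and 0.815 to 1.45 CPM in CM, and none of the 8 passed the filter. The sum of 8 platelet markers was 9.22 to 12.2 CPM in DMEM and 54.7 to 90.3 CPM in CM, most of it Pf4, with Gp6 at 0 in every sample. The sum of 6 B cell markers, nearly all Ighm, was 80.2 to 144 CPM in DMEM and 10.6 to 14.2 CPM in CM. The part of other cells in the results below was not tested. In bulk samples, fewer cells with a transcript and less of it in each cell cannot be told apart.

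Totals were adjusted by relative log expression (RLE) before CPM were taken. Called, here and below, means an adjusted p-value under 0.05 together with a rise or fall of more than 0.5 on the log2 scale. The test was the quasi-likelihood test of edgeR, with Benjamini-Hochberg adjustment over all 12372 genes, and SE is the standard error of a log2 fold change.

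**Figure D1:**
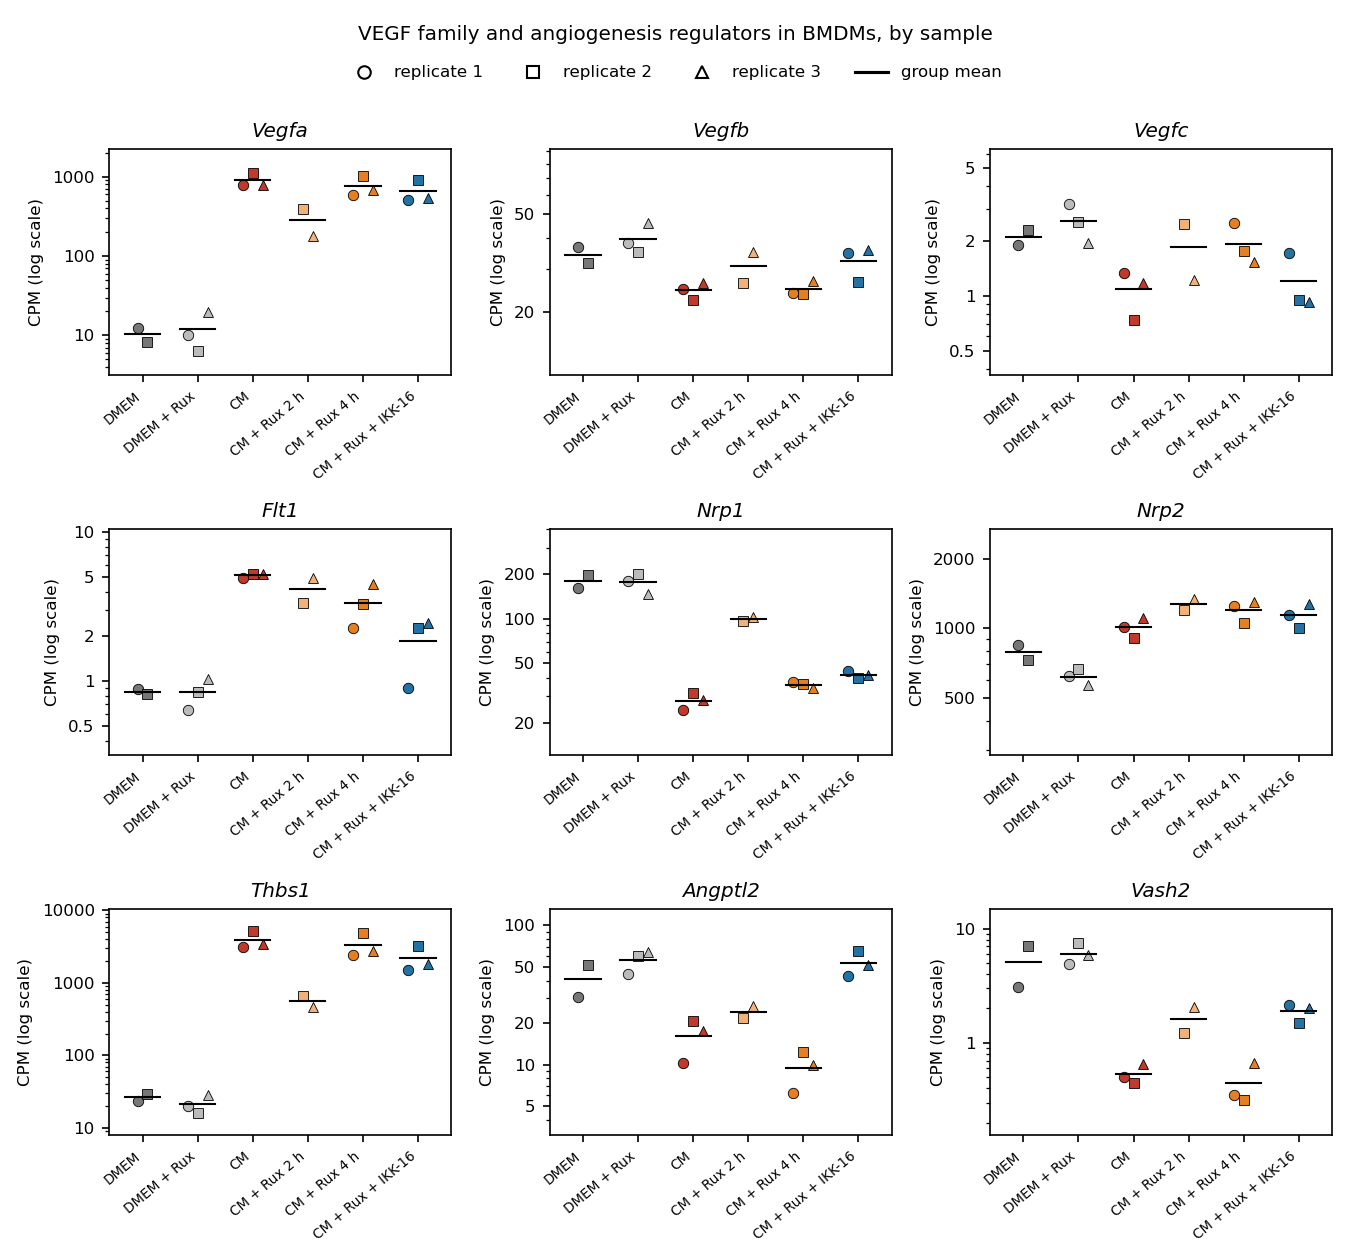
CPM (log axis) of the 9 members in each of the 16 samples, with 1 panel per gene, the shape of a point giving the replicate number and the bar the group mean. Vegfa and Thbs1 sat at 6.43 to 29.5 CPM in the DMEM samples and at 177 to 5232 CPM in every sample with CM, while Nrp1 ran the other way, and Angptl2 with IKK-16 lay at 43.2 to 65.6 CPM, within or just above its range in the DMEM groups.

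Vegfa (ENSMUSG00000023951, chromosome 17 from 46016993 to 46032369 of GRCm38) was low in plain medium, at 12.5 and 8.23 CPM in the DMEM samples and 10.3, 6.43 and 19.7 CPM with ruxolitinib. It stood at 782, 1114 and 795 CPM in CM, at 594, 1016 and 672 CPM in CM + Rux 4 h, and at 510, 915 and 537 CPM in CM + Rux + IKK-16. The samples of these last 3 groups overlapped, and replicate 2 was the highest in each of them. Within each replicate number, Vegfa was highest in CM and lowest with IKK-16, but neither step was called with the replicate number as a block. In CM + Rux 2 h the samples read 394 and 177 CPM, below every sample of those 3 groups and above every sample without CM. The rise in CM was 85.9-fold (log2 fold change 6.43, SE 0.58, adjusted p = 6.1e-07).

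Neither inhibitor changed Vegfa past the threshold. With ruxolitinib in CM the log2 fold change was -0.24 (95% confidence interval -1.05 to 0.57, adjusted p = 0.88), and with IKK-16 added to ruxolitinib it was -0.22 (-1.03 to 0.59, adjusted p = 0.76). Both inhibitors together, against CM alone, gave -0.46 (-1.26 to 0.35, adjusted p = 0.42). The 2 h samples were lower than CM by 1.65 on the log2 scale, or 3.14-fold (SE 0.45, adjusted p = 0.0087), and 2.66-fold lower than CM + Rux 4 h (adjusted p = 0.022). That call rested on replicate 3 of the 2 h group: without it the log2 fold change against CM was -1.19 (adjusted p = 0.11) and against CM + Rux 4 h -0.95 (adjusted p = 0.20). Without replicate 2 of CM + Rux 4 h the latter was -1.15 (adjusted p = 0.064).

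Vegfb (ENSMUSG00000024962, chromosome 19 from 6982473 to 6987651), a ligand of VEGFR1 with little effect on vessel growth in most tissues, moved little. Its samples read 36.9 and 31.6 CPM in DMEM, 38.1, 35.0 and 45.9 CPM in DMEM + Rux, 24.9, 22.4 and 26.2 CPM in CM and 24.0, 23.6 and 26.8 CPM in CM + Rux 4 h. With IKK-16 they were 34.9, 26.5 and 35.7 CPM, and the 2 h samples had 26.3 and 35.2 CPM. Every CM sample lay below both DMEM samples, but the log2 fold change of -0.49 (SE 0.16, adjusted p = 0.015) missed the fold change threshold. It passed that threshold without replicate 3 of CM (-0.54, adjusted p = 0.019), without replicate 2 of DMEM (-0.59, adjusted p = 0.022) and with scaling by total counts (-0.79, adjusted p = 0.00097). Between CM + Rux 4 h and DMEM + Rux Vegfb was called lower, by 0.68 on the log2 scale (SE 0.14, adjusted p = 0.00067). When IKK-16 was added to ruxolitinib it had a log2 fold change of 0.39 (adjusted p = 0.081), and 0.51 (adjusted p = 0.026) without replicate 2 of that group.

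Vegfc (ENSMUSG00000031520, chromosome 8 from 54077606 to 54187096) was near the limit of the filter, with 21 to 114 counts per sample. It had 1.89 and 2.29 CPM in DMEM, 3.19, 2.55 and 1.94 CPM in DMEM + Rux, and 1.34, 0.743 and 1.18 CPM in CM. The CM + Rux 4 h samples read 2.51, 1.77 and 1.53 CPM, those at 2 h 2.49 and 1.23 CPM, and those with IKK-16 1.73, 0.948 and 0.932 CPM. It was called lower in CM than in DMEM by 0.98 on the log2 scale (SE 0.38, adjusted p = 0.038), a call that was lost on leaving out CM replicate 2 (adjusted p = 0.14), CM replicate 3 (0.054), DMEM replicate 1 (0.066) or DMEM replicate 2 (0.16). Every CM + Rux 4 h sample lay above every CM sample, yet the log2 fold change of 0.89 was not called (95% confidence interval 0.14 to 1.63, adjusted p = 0.21).

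Of the 5 VEGF ligands, Pgf (ENSMUSG00000004791, chromosome 12 from 85166635 to 85177790), which encodes placental growth factor and is no member of the group, responded to both CM and ruxolitinib. It had 0.325 and 0.246 CPM in DMEM, 13.2, 31.2 and 19.9 CPM in CM, and 2.05, 4.72 and 1.32 CPM in CM + Rux 4 h. With IKK-16 it read 2.73, 8.38 and 2.85 CPM, and at 2 h 6.71 and 4.79 CPM. Every CM sample lay above all samples of the other 5 groups. Pgf rose in CM by 6.19 on the log2 scale (SE 0.77, adjusted p = 1.1e-05) and was lower with ruxolitinib by 2.93 (SE 0.48, adjusted p = 0.0025). IKK-16 added to ruxolitinib gave 0.72 (adjusted p = 0.36), and 0.70 (adjusted p = 0.042) with the replicate number as a block. Vegfd, the remaining ligand, averaged at most 0.244 CPM in a group and did not pass the filter.

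Flt1 (ENSMUSG00000029648, chromosome 5 from 147561604 to 147726011), the VEGFR1 gene, rested on 14 to 176 counts per sample, and counts per gene do not separate its membrane and soluble forms. It had 0.887 and 0.819 CPM in DMEM, 0.647, 0.849 and 1.04 CPM in DMEM + Rux, and 4.90, 5.23 and 5.25 CPM in CM. The samples read 2.29, 3.29 and 4.48 CPM in CM + Rux 4 h and 0.902, 2.26 and 2.45 CPM with IKK-16, and the 2 h samples had 3.37 and 4.91 CPM. All 3 CM samples lay above all samples of CM + Rux 4 h, and the lowest sample with IKK-16 lay within the range of DMEM + Rux. The rise in CM was 5.98-fold (log2 fold change 2.58, SE 0.40, adjusted p = 8.4e-05). Ruxolitinib alone gave a log2 fold change of -0.64 (95% confidence interval -1.29 to 0.02, adjusted p = 0.35), and IKK-16 added to it gave -0.83 (-1.51 to -0.15, adjusted p = 0.10). With the replicate number as a block the latter was -0.86 (adjusted p = 0.011). Both inhibitors together lowered Flt1 2.76-fold against CM (log2 fold change -1.46, SE 0.31, adjusted p = 0.0047).

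Kdr (ENSMUSG00000062960, chromosome 5 from 75932827 to 75978458), the VEGFR2 gene and also no member, went the opposite way from Flt1. It had 13.0 and 23.8 CPM in DMEM, 3.39, 6.63 and 4.64 CPM in CM, 4.10, 7.05 and 5.19 CPM in CM + Rux 4 h, and 12.5, 18.6 and 13.5 CPM with IKK-16. The IKK-16 samples lay above all those of CM and of CM + Rux 4 h. Kdr was lower in CM than in DMEM by 1.88 on the log2 scale (SE 0.30, adjusted p = 0.00011) and higher with IKK-16 than with ruxolitinib alone by 1.44 (SE 0.28, adjusted p = 0.0041). Kdr also marks endothelial cells, and Pecam1, another of their markers, which is also found on leukocytes and platelets, averaged 0.397 CPM in DMEM, 0.279 CPM in DMEM + Rux, 9.79 CPM in CM, 5.69 CPM in CM + Rux 4 h, 4.59 CPM with IKK-16 and 0.421 CPM at 2 h. Pecam1 was thus highest in CM, as Flt1 was, while Kdr was lower there. The summed level of all 11 endothelial markers, Kdr among them, was 264 to 292 CPM in DMEM and 201 to 272 CPM in CM. It was 182 to 228 CPM in CM + Rux 4 h and 208 to 294 CPM with IKK-16. In DMEM + Rux it was 263 to 335 CPM, and at 2 h 246 to 355 CPM. The part of endothelial cells in the Flt1 and Kdr results was not tested. Flt4, the VEGFR3 gene, averaged 0.456 to 1.24 CPM in the 6 groups. It was called in 1 comparison, higher at 2 h than in CM + Rux 4 h by 1.30 (adjusted p = 0.045), and this call was lost in 10 of 23 alternatives, with 0.51 (adjusted p = 0.51) without replicate 3 of the 2 h group, 1.11 (0.12) and 1.19 (0.097) without replicate 2 or 3 of CM + Rux 4 h, and 1.23 (0.056) with total counts.

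The co-receptors parted in CM. Nrp1 (ENSMUSG00000025810, chromosome 8 from 128358604 to 128503363) had 161 and 195 CPM in DMEM and 179, 200.3 and 146 CPM in DMEM + Rux, but 24.4, 31.5 and 28.5 CPM in CM. It read 37.2, 36.3 and 34.0 CPM in CM + Rux 4 h, 44.3, 39.6 and 41.7 CPM with IKK-16, and 96.4 and 103 CPM at 2 h. Apart from DMEM and DMEM + Rux, no group overlapped its neighbour in the order DMEM, DMEM + Rux, CM + Rux 2 h, CM + Rux + IKK-16, CM + Rux 4 h, CM. Nrp1 fell 6.30-fold in CM (log2 fold change -2.66, SE 0.13, adjusted p = 2.8e-09). Its log2 fold change was 0.35 with ruxolitinib (95% confidence interval 0.09 to 0.60, adjusted p = 0.13) and 0.22 with IKK-16 added (-0.03 to 0.47, adjusted p = 0.23), neither of them called. Both inhibitors together raised it by 0.57 against CM (SE 0.12, adjusted p = 0.0038), or by 0.48 without replicate 1 of CM, which is under the fold change threshold. At 2 h Nrp1 was 3.53-fold higher than in CM (adjusted p = 2.7e-07) and 2.78-fold higher than in CM + Rux 4 h (adjusted p = 2.1e-06).

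Nrp2 (ENSMUSG00000025969, chromosome 1 from 62703285 to 62818695), a co-receptor for VEGF-C and class 3 semaphorins, was abundant throughout, with 850.4 and 729.7 CPM in DMEM and 621, 668 and 571 CPM in DMEM + Rux. Its samples ranged from 912 to 1112 CPM in CM, from 1058 to 1297 CPM in CM + Rux 4 h, from 1001 to 1281 CPM with IKK-16, and from 1202 to 1343 CPM at 2 h. The 4 groups with CM overlapped when ordered by their means and lay above both groups without it. The log2 fold change in CM was 0.36 (SE 0.13, adjusted p = 0.028), short of the threshold, and 0.05 (adjusted p = 0.79) with scaling by total counts. With ruxolitinib on both sides it was called higher, by 0.96 (SE 0.12, adjusted p = 6.2e-06). The difference between the ruxolitinib effects in CM and in DMEM was 0.60 (SE 0.17, adjusted p = 0.17) for Nrp2, which was 0.63 (adjusted p = 0.018) with the replicate number as a block and 0.60 (adjusted p = 0.041) with DESeq2. The number of all genes called in this comparison also rose under these alternatives, from 51 to 444 with the block and 237 with DESeq2, and was 17 without replicate 1 of DMEM and 114 without replicate 2 of DMEM.

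**Figure D2:**
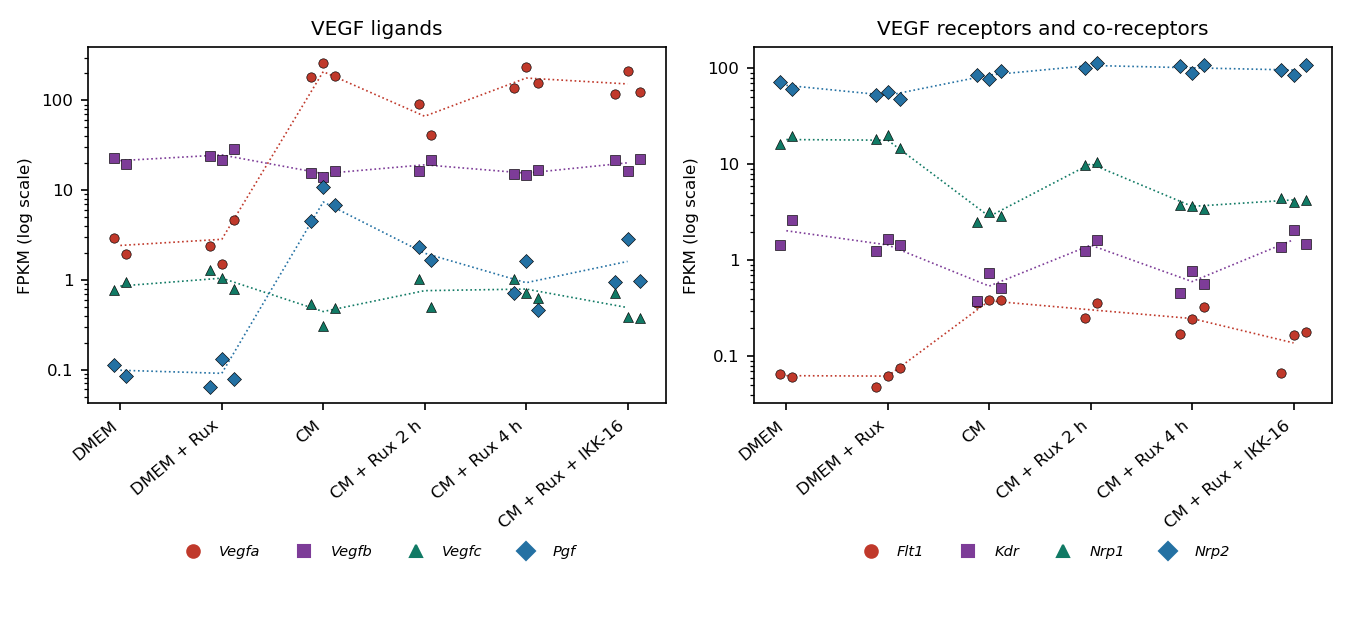
FPKM (CPM per kilobase of exon, log axis) of 4 VEGF ligands and of 4 receptors and co-receptors in each sample, with dotted lines through the group means. Vegfa passed Vegfb in every sample with CM, and the gap between Nrp2 and Nrp1 widened, with Nrp1 at 3.29% of their sum in CM and 21.5% in DMEM.

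Levels per length, as FPKM, allow the genes to be set side by side. Vegfb made up 86.1% ± 0.951 (SD, n = 2) of the summed FPKM of the 5 VEGF ligands in DMEM, and Vegfa 9.65% ± 1.67. In CM Vegfa made up 89.9% ± 1.30 (SD, n = 3) of that sum, with 90.7% ± 2.22 in CM + Rux 4 h and 86.4% ± 4.43 with IKK-16. The 2 h samples held 82.4% and 63.2%. The main VEGF ligand transcript was thus Vegfb in every sample without CM and Vegfa in every sample with it. On the same scale Nrp1 was 21.5% ± 4.14 (SD, n = 2) of the sum of Nrp1 and Nrp2 in DMEM, 3.29% ± 0.638 (SD, n = 3) in CM, 3.51% ± 0.456 in CM + Rux 4 h and 4.28% ± 0.431 with IKK-16. By group means Flt1 was the lowest of the 4 receptor genes plotted, at 0.0631 FPKM in DMEM and 0.380 FPKM in CM.

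Thbs1 (ENSMUSG00000040152, chromosome 2 from 118111876 to 118127133) had the largest fold change of the 9 members in CM. It read 23.5 and 29.5 CPM in DMEM and 20.1, 16.2 and 28.8 CPM in DMEM + Rux, against 3139, 5232 and 3463 CPM in CM. The CM + Rux 4 h samples had 2407, 4924 and 2755 CPM, those with IKK-16 1489, 3276 and 1848 CPM, and those at 2 h 666 and 472 CPM. As for Vegfa, replicate 2 was the highest in CM, CM + Rux 4 h and CM + Rux + IKK-16, and the 2 h samples lay between the groups with and without CM. Within each replicate number Thbs1 too was highest in CM and lowest with IKK-16 among these 3 groups. The rise was 149-fold in CM (log2 fold change 7.22, SE 0.52, adjusted p = 7.8e-08) and 155-fold with ruxolitinib on both sides (7.28, SE 0.44, adjusted p = 7.7e-09). Thbs1 is also abundant in platelets. Of 8 platelet markers 4 passed the filter, while 3 had no counts in DMEM and 3 had none in CM. Most of their sum was Pf4, which averaged 7.15 CPM in DMEM and 63.7 CPM in CM, and Ppbp averaged 0.31 and 3.95 CPM. The part of platelets in the Thbs1 result was not tested.

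Ruxolitinib gave a log2 fold change of -0.23 for Thbs1 (95% confidence interval -0.94 to 0.47, adjusted p = 0.86), and IKK-16 added to it -0.61 (-1.32 to 0.10, adjusted p = 0.24). Both inhibitors together against CM gave -0.84 (-1.55 to -0.13, adjusted p = 0.084), which was called with the replicate number as a block (-0.87, adjusted p = 0.0098) and without replicate 2 of the IKK-16 group (-1.24, adjusted p = 0.017). The 2 h samples were 6.93-fold lower than CM (log2 fold change -2.79, SE 0.41, adjusted p = 0.00012) and 5.91-fold lower than CM + Rux 4 h (adjusted p = 0.00030).

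Angptl2 (ENSMUSG00000004105, chromosome 2 from 33216069 to 33247717) encodes a secreted angiopoietin-like protein that signals through integrins and the receptor PirB. It had 30.7 and 52.3 CPM in DMEM and 45.0, 60.2 and 64.4 CPM in DMEM + Rux, and 10.2, 20.6 and 17.5 CPM in CM. In CM + Rux 4 h it read 6.28, 12.2 and 9.97 CPM, at 2 h 21.5 and 26.5 CPM, and with IKK-16 43.2, 65.6 and 52.1 CPM. Every CM sample lay below both DMEM samples. Every IKK-16 sample lay above all other samples with CM, but this is a description only. The IKK-16 and CM + Rux 4 h samples served to choose the gene. Angptl2 was called lower in CM, by 2.54-fold (log2 fold change -1.35, SE 0.31, adjusted p = 0.0018). With ruxolitinib in CM the log2 fold change was -0.78, given without a test because the CM + Rux 4 h samples also served to choose the gene. The change on adding IKK-16, by which Angptl2 was chosen, was 5.65-fold, or 2.50 on the log2 scale, and its mean then stood at 129% of the DMEM mean.

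Vash2 (ENSMUSG00000037568, chromosome 1 from 190947646 to 190979296) encodes vasohibin-2, a tubulin carboxypeptidase described as promoting vessel growth. It was scarce, with 3.10 and 7.04 CPM in DMEM and 4.90, 7.44 and 5.83 CPM in DMEM + Rux, and 0.501, 0.446 and 0.652 CPM in CM, where it had 9 to 16 counts. It had 13 counts in each CM + Rux 4 h sample, or 0.351, 0.315 and 0.662 CPM, 1.22 and 2.05 CPM at 2 h, and 2.14, 1.50 and 2.01 CPM with IKK-16. The samples with IKK-16 lay above those of CM and of CM + Rux 4 h and below both DMEM samples. This too is a description only, since the IKK-16 and CM + Rux 4 h samples served to choose Vash2. Vash2 was called 9.44-fold lower in CM than in DMEM (log2 fold change -3.24, SE 0.39, adjusted p = 8.2e-06). At 2 h it was called 2.95-fold higher than in CM (log2 fold change 1.56, SE 0.44, adjusted p = 0.011), or 1.20 (adjusted p = 0.093) without replicate 3 of the 2 h group. The change on adding IKK-16, by which it was chosen, was 4.57-fold, or 2.19 on the log2 scale, which brought its mean to 37.1% of the DMEM mean.

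**Figure D3:**
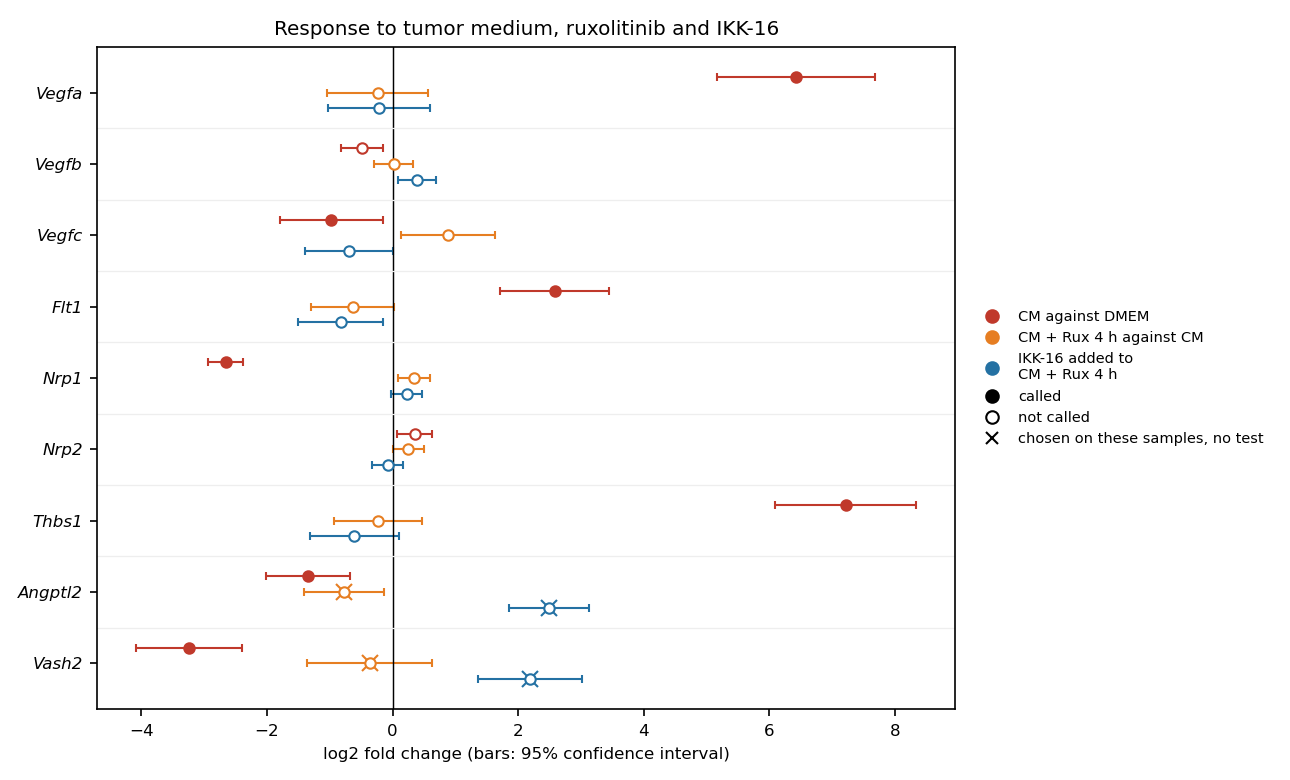
Log2 fold changes of the 9 members with 95% confidence intervals for CM against DMEM, ruxolitinib in CM, and IKK-16 added to ruxolitinib, with filled points for called genes and crosses for Angptl2 and Vash2 where the samples that served to choose them enter. Intervals at the crosses are drawn as a description and cannot serve as a test, since these genes were chosen on those samples. The 7 filled points are all for CM, and the ruxolitinib and IKK-16 points of the members tested lie between -0.83 and 0.89.

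Counted over the members, CM changed 7 of 9, with 3 called higher (Vegfa, Flt1 and Thbs1) and 4 lower (Vegfc, Nrp1, Angptl2 and Vash2). Of all genes tested 45.0% were called in this comparison, 20.9% higher and 24.1% lower, or 12.4% higher and 37.2% lower with scaling by total counts. The groups did not overlap for any of the 9 members, nor for 74.8% of all genes. Ruxolitinib in CM changed 0 of the 7 members tested, with 3.33% of all genes called (1.20% higher and 2.13% lower). Unadjusted p-values were under 0.05 for 3 of them (Vegfc, Nrp1 and Nrp2), and DESeq2 also called 0. The replicate number as a block called 0 as well, beside 6.02% of all genes. There was no overlap for 3 of the 7, and for 19.2% of all genes. IKK-16 added to ruxolitinib changed 0 of the 7 members tested, beside 7.74% of all genes (4.07% higher and 3.66% lower), with 2 unadjusted p-values under 0.05 (Vegfb and Flt1) and 0 calls with DESeq2. With the replicate number as a block 1 member was called (Flt1), beside 719 genes higher and 623 lower of the 12372 tested. Samples were apart for 1 of these 7, and for 31.5% of all genes. The ruxolitinib and IKK-16 comparisons share the CM + Rux 4 h samples. In DMEM ruxolitinib changed 0 of 9, beside 0.970% of all genes, with 1 unadjusted p-value under 0.05 (Nrp2) and 0 calls with DESeq2. Nrp2 had 621, 668 and 571 CPM there, below both DMEM samples (log2 fold change -0.35, adjusted p = 0.64), and was the 1 member without overlap, beside 18.5% of all genes.

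**Figure D4:**
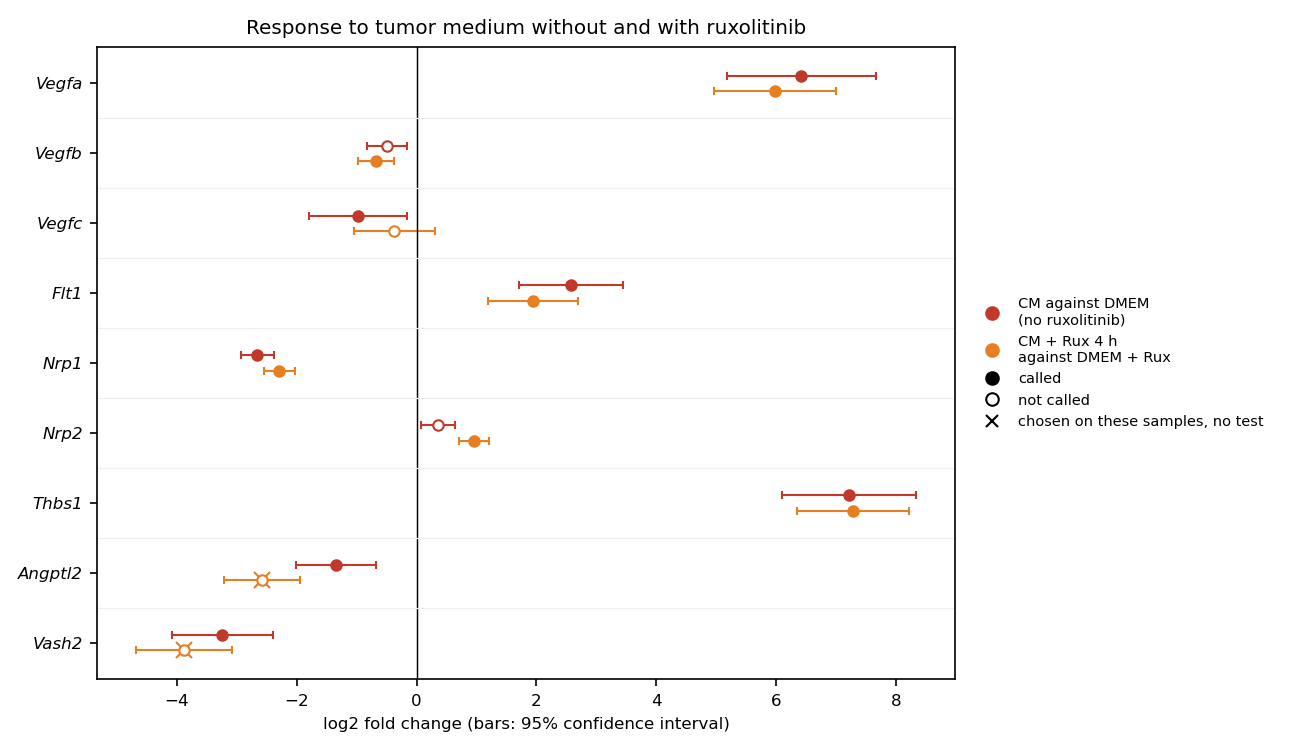
Log2 fold changes of the 9 members with 95% confidence intervals for CM against DMEM and for CM + Rux 4 h against DMEM + Rux. These 2 comparisons have no sample in common but are not independent, as samples with the same replicate number were correlated between them. Crosses mark Angptl2 and Vash2 in the latter comparison, where their intervals are a description and not a test. Vegfa (6.43 and 5.98), Flt1 (2.58 and 1.94), Thbs1 (7.22 and 7.28) and Nrp1 (-2.66 and -2.29) were called in the same direction in both.

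The response to CM was also measured with ruxolitinib present on both sides, in samples that the first comparison did not use. There 6 of 7 members tested were called, with Vegfa, Flt1, Nrp2 and Thbs1 higher and Vegfb and Nrp1 lower, beside 47.3% of all genes (22.3% higher and 25.0% lower, or 13.7% and 37.8% with total counts). No overlap was seen for 6 of the 7, and for 70.0% of all genes. This comparison and CM against DMEM are not independent, since samples with the same replicate number shared deviations from their group means. These correlated between CM and CM + Rux 4 h (r = 0.43, 0.62 and 0.48) and between DMEM and DMEM + Rux (0.30 and 0.32). Vegfa rose 63.0-fold (log2 fold change 5.98, SE 0.47, adjusted p = 1.0e-07), Flt1 3.84-fold (adjusted p = 0.00021), and Nrp1 fell 4.88-fold (adjusted p = 2.5e-09). Vegfc had a log2 fold change of -0.37 (95% confidence interval -1.05 to 0.30, adjusted p = 0.31). Angptl2 and Vash2, described only, were lower with log2 fold changes of -2.58 and -3.88. A test of the difference between the ruxolitinib effects in CM and in DMEM called 0 of 7 members, beside 0.412% of all genes, or 3.59% with the replicate block and 1.92% with DESeq2. It had 1 unadjusted p-value under 0.05, that of Nrp2, which was the 1 member DESeq2 called. For Vegfa this difference was -0.45 (95% confidence interval -1.74 to 0.84, adjusted p = 0.97).

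The samples labelled 2 h differed from CM in 4 of 9 members, with Vegfa and Thbs1 lower and Nrp1 and Vash2 higher, beside 28.0% of all genes (14.6% higher and 13.3% lower). No overlap was seen for 7 of the 9, and for 63.3% of all genes. Against CM + Rux 4 h 3 of 7 were called (Vegfa and Thbs1 lower, Nrp1 higher), beside 23.3% of all genes (12.6% higher and 10.7% lower). The groups did not overlap for 3 of these 7, and for 59.6% of all genes. For Vegfa, Thbs1 and Nrp1 both 2 h samples lay between the groups in DMEM and all other samples with CM. Marker sums also set the 2 h samples apart. The sum of 6 dendritic cell markers was 8.84 to 12.8 CPM at 2 h and 2.26 to 2.81 CPM in CM. Only Zbtb46 of the 6 passed the filter, at a mean of 10.1 and 1.45 CPM, so this difference was mostly that of 1 gene. The B cell sum was 55.7 to 71.4 CPM at 2 h and the platelet sum 15.8 to 20.7 CPM, both between the ranges in DMEM and in CM. Their part in the 2 h results was not tested. Both inhibitors against CM called 2 of 7 members (Flt1 lower and Nrp1 higher), beside 12.7% of all genes (6.60% higher and 6.13% lower). With the replicate number as a block Thbs1 was called lower too, beside 1021 genes higher and 904 lower of the 12372 tested. The groups did not overlap for 3 of the 7, and for 37.9% of all genes.

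Genes of 10 hand-written lists around these members were counted in the same way. Over all genes the median log2 fold change lay between -0.03 and 0.01 in every comparison, a value that RLE scaling largely sets. In CM against DMEM that scaling moved log2 fold changes by a median of 0.31 relative to total counts, so small list medians depend on it. In CM 37 of the 103 list genes tested were called higher and 31 lower, or 66.0%. Of all genes 45.0% were called, 20.9% higher and 24.1% lower. The lists were written with earlier results of these data known, and they hold the members. Their share thus cannot show that list genes respond more than other genes. Of 4 VEGF ligands tested 2 were called higher and 1 lower, and of 5 receptors and co-receptors 1 higher and 2 lower. Among the other lists, VEGF receptor signalling had 12 rises and 12 falls among 44 genes, and its median log2 fold change was 0.20. Its largest rise was that of Ptgs2, which encodes cyclooxygenase-2, with a mean of 8.05 CPM (SD 2.87, n = 2) in DMEM and of 3273 CPM (SD 736, n = 3) in CM (log2 fold change 8.65, adjusted p = 6.6e-09). Its largest fall was that of Nfatc2, a calcium-dependent transcription factor, by 1.61 on the log2 scale.

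Among 11 other angiogenic ligands, CM raised 5 and lowered 4, beside 20.9% of all genes called higher and 24.1% lower. Edn1, the endothelin-1 gene, rose from 0.165 to 20.2 CPM (log2 fold change 6.86, adjusted p = 7.7e-06), and Angpt2, the angiopoietin-2 gene, fell from 1.50 to 0.177 CPM (-3.07, adjusted p = 3.6e-05). Of 11 angiogenesis inhibitors 6 were called higher and 1 lower, the latter being Timp2 (-1.08, adjusted p = 0.00014). Il12b, which encodes a subunit of interleukin-12, had at most 2 counts in a DMEM sample and was at least 73.0-fold higher in CM, or at least 30.8-fold without replicate 2 of CM. All 4 angiopoietin-like genes tested were lower (Angptl4 the most, by 4.34 on the log2 scale), with a median of -1.90.

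Vash1, the vasohibin-1 gene, was called higher in CM by 1.47 (adjusted p = 0.0013), while Vash2 was lower. Of 5 class 3 semaphorin and plexin genes tested 1 was higher (Sema3c, 2.36) and 3 lower (Plxna2, -2.35). Of 8 regulators of hypoxia-inducible factors 5 were higher and 1 lower, with a median of 0.94, and Egln3, an oxygen-sensing prolyl hydroxylase, rose the most, by 3.79 (adjusted p = 7.7e-08). Of 8 genes for thrombospondin and ANGPTL2 receptors 3 were higher (Itga5, 2.23) and 2 lower (Itga6, -2.12). The lists share genes with the members, and Thbs1, Vash2, Angptl2 and the VEGF genes count in both.

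**Figure D5:**
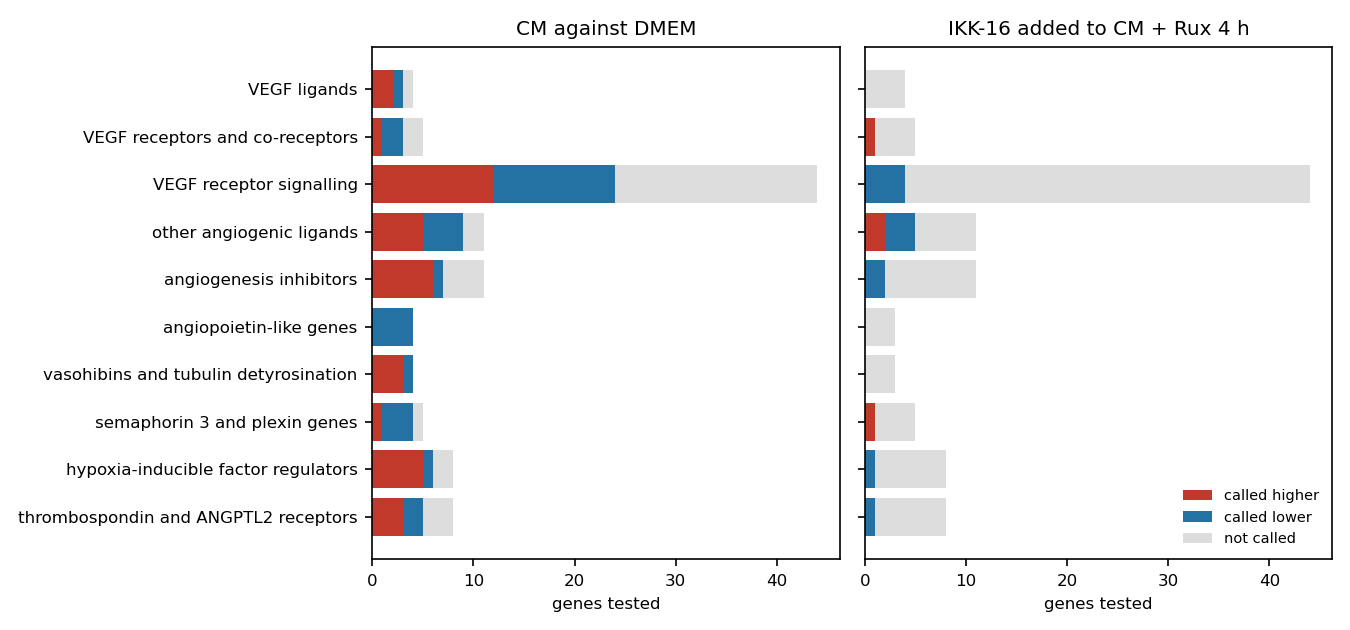
Number of genes called higher, called lower and not called in each of 10 lists, for CM against DMEM and for IKK-16 added to CM + Rux 4 h, where Angptl2 and Vash2 are left out. In CM 12 of 44 VEGF receptor signalling genes were higher and 12 lower, and with IKK-16 added 0 were higher and 4 lower. Of all genes 20.9% were called higher and 24.1% lower in CM, and 4.07% and 3.66% with IKK-16 added.

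Ruxolitinib in CM called 1 gene higher and 3 lower of the 101 list genes tested, or 3.96%, beside 3.33% of all genes. Pgf, Sphk1 (sphingosine kinase 1, -2.13, adjusted p = 0.0023) and Pdgfa (a platelet-derived growth factor chain, -1.06, adjusted p = 9.8e-05) were lower and Itgb3 was higher (1.26, adjusted p = 0.016). The call of Itgb3 was lost without CM replicate 1 (adjusted p = 0.063), CM replicate 2 (0.052) or CM + Rux 4 h replicate 3 (0.050). In DMEM ruxolitinib called 1 gene of the lists, Cxcl10, an interferon-induced chemokine, which fell from a mean of 16.4 CPM (SD 0.854, n = 2) to one of 0.280 CPM (SD 0.102, n = 3).

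When IKK-16 was added to ruxolitinib, 4 of 44 VEGF receptor signalling genes were called lower and 0 higher, beside 3.66% and 4.07% of all genes, among them Ptgs2 by 1.59 on the log2 scale (adjusted p = 0.0024). Of 11 other angiogenic ligands 2 were higher and 3 lower. Angpt2 rose from 0.378, 0.315 and 0.407 CPM to 1.34, 1.04 and 1.19 CPM (log2 fold change 1.72, adjusted p = 0.0054), and Edn1 fell from 15.1 ± 8.18 CPM to 2.51 ± 1.80 CPM (SD, n = 3; log2 fold change -2.62, adjusted p = 0.0028). Hif1a, which encodes the oxygen-regulated subunit of HIF-1, had 1067, 1183 and 1064 CPM with ruxolitinib and 710, 804 and 791 CPM with IKK-16 added. Its log2 fold change of -0.52 (adjusted p = 0.0054) lay close to the fold change threshold. It was -0.47 without replicate 2 of CM + Rux 4 h or replicate 1 of the IKK-16 group, and -0.44 with total counts.

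At 2 h 4 of 8 regulators of hypoxia-inducible factors were lower than in CM and 1 was higher, beside 13.3% and 14.6% of all genes. Egln3 averaged 1.56 CPM (SD 0.0219, n = 2) in these samples. CM held it at a mean of 31.1 CPM (SD 5.70, n = 3), CM + Rux 4 h at 23.2 CPM (SD 5.08, n = 3) and DMEM at 2.29 CPM (SD 0.473, n = 2). Its log2 fold change against CM was -4.32 (adjusted p = 2.0e-07).

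The genes whose log2(CPM + 1) followed a member most closely over the 16 samples were looked up among the 9434 others that averaged 5 CPM or more. For Vegfa they were Nus1, Uck2 and Slc15a3 (Pearson r = 0.993 for each), for Nrp1 Stom (0.992), Rgs18 (0.990) and Arhgef6 (0.988). For Thbs1 they were Uck2 (0.996), Slc16a3 (0.995) and Chst11 (0.994), and for Angptl2 Dnmt1 (0.939), Nceh1 (0.934) and Fnip2 (0.933). These values describe 16 samples that share 6 treatments and carry no test.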

How the data were processed

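RNA of 16 BMDM samples was sequenced by the authors as stranded paired-end libraries. Per the labels and the file headers, the authors used Trimmomatic 0.33, HISAT2 2.1.0 on GRCm38 and featureCounts 1.6.2, and deposited whole-number counts of fragments per gene, without scaling. Symbols came from GENCODE M21, which named 55141 of 55487 identifiers. Groups and replicate numbers come from the sample titles, and positions are those of the count table.

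Here the 12372 genes with more than 1 CPM in 2 samples or more were tested after RLE scaling with edgeR 4.0.16 (limma 3.58.1, R 4.3.3) in 1 model of 6 groups. The test was tried on counts simulated for CM against DMEM and for IKK-16 added to CM + Rux 4 h. Those counts held no effect of the replicate number, so the trial could not check for one. CPM and FPKM use the RLE-scaled totals and the exon lengths of the count table. The thresholds, filter and scaling follow the paper's methods. RLE scaling moved the median log2 fold change by 0.31 in CM against DMEM, 0.30 in CM + Rux 4 h against DMEM + Rux and -0.11 in CM + Rux + IKK-16 against CM, relative to total counts, and by less than 0.1 elsewhere. Within groups, pairs of samples differed by more than counting noise (chi-square per degree of freedom 13.2 to 50.3). Deviations from group means of samples with the same number correlated with a median of 0.32 over 35 pairs, 34 of them above 0.1, and with a median of -0.12 over 71 pairs with different numbers. In comparisons with 3 shared numbers every pair was above 0.1, so the numbers were taken to pair samples there, and a blocked value is given where it changes a call. Alternatives were TMM and total count scaling, no filter, filterByExpr, the replicate number as a block, a model of only the groups compared, DESeq2 1.42.0, leaving out each sample in turn, and calls by the adjusted p-value alone.

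The 9 members and the lists were chosen with earlier results of these data known. Named list genes are those of the VEGF ligand and receptor lists and the called genes with the largest rise or fall of a list. A fold against a group with at most 3 counts in every sample was computed against 3 counts in its shallowest sample and is a bound for counting error only. Promoters came from RefSeq (GRCm38.p6), and matches were searched with Python 3.11.15, pandas 2.3.3 and numpy 2.4.6. Figures were drawn with matplotlib 3.10.9.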

Additional observations from a re-analysis of the deposited data

How the results depend on the processing

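Of the values of the 9 members under the alternatives, 1861 kept their direction and, where tested, their side of the threshold. Values of Angptl2 and Vash2 without a test counted as kept when they moved by less than the replicate spread. Another 9 lost and 22 gained a call, and 37 changed direction. A further 14, of Vash2 without a test, moved by more than the replicate spread. For IKK-16 added to ruxolitinib the count of members called rose from 0 to 1 (Flt1) with no filter on low counts and with the replicate number as a block, and ranged from 0 to 1 when a sample was left out. For the difference between the ruxolitinib effects it rose from 0 to 1 (Nrp2) with no filter, with the block and with DESeq2. For both inhibitors against CM it ranged from 1 to 4 around 2 when a sample was left out, with 1 without replicate 1 of CM and 4 without replicate 2 of CM + Rux + IKK-16. The cause was not tested.

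Where the numbers were shared by 2 pairs only, the replicate block added a call for Vegfb in CM against DMEM (-0.56, adjusted p = 3.7e-05) and for Vegfc at 2 h against CM (1.02, adjusted p = 0.014). Beside the changes named with the results and here, the block changed no other call of a member.

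None of the values that changed direction was called. With total counts Nrp2 on adding IKK-16 was 0.0079. For ruxolitinib in DMEM Flt1 was -0.0023 with no filter, -0.0022 with filterByExpr, -0.25 with the block, -0.0085 with only the groups compared and -0.0034 with DESeq2, and Nrp1 was 0.0041 with the block. The difference between ruxolitinib effects for Thbs1 was -0.021 with the block. Vegfc at 2 h against CM + Rux 4 h was 0.18 with the block and 0.0046 with only the groups compared. With 1 sample left out, log2 fold changes for ruxolitinib in CM ranged from -0.048 to 0.069 (Vegfb), -0.61 to 0.026 (Thbs1) and -0.12 to 0.43 (Kdr). On adding IKK-16 they ranged from -0.54 to 0.045 (Vegfa), -0.17 to 0.011 (Nrp2) and -0.014 to 1.41 (Pgf). For ruxolitinib in DMEM the ranges were -0.35 to 0.55 (Vegfa), -0.16 to 0.13 (Flt1), -0.16 to 0.13 (Nrp1) and -0.21 to 0.97 (Vash2). For the difference between ruxolitinib effects they were -0.79 to 0.11 (Vegfa) and -0.32 to 0.32 (Thbs1). At 2 h against CM + Rux 4 h they were -0.68 to 0.34 (Vegfc) and -0.0050 to 0.16 (Nrp2), and for both inhibitors against CM -0.17 to 0.35 (Vegfc).

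Of all genes, the difference between ruxolitinib effects called 51, against 444 with the block, 237 with DESeq2, 349 with no filter, 90 with total counts and 17 to 114 with 1 sample left out. Ruxolitinib in CM called 412, against 745 with the block, 685 with no filter and 243 to 486 with 1 sample left out. By the adjusted p-value alone 1778 were called in place of 957 on adding IKK-16, 5388 in place of 3458 at 2 h against CM, 4726 in place of 2883 at 2 h against CM + Rux 4 h, and 2857 in place of 1575 for both inhibitors against CM. With total counts 727 rose and 350 fell on adding IKK-16, in place of 504 and 453, and 1255 rose and 587 fell with both inhibitors against CM, in place of 817 and 758.

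Counts were fewest for Vegfc, Flt1 and Vash2, with as few as 21, 14 and 9 in a sample, and groups held 2 or 3 samples.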
